A study of Mus musculus with 10 samples.

Results

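Endothelial cells line the capillaries of the islet, and the genes described here are the 45 measured members of a list of 46 genes of endothelial identity and vascular growth, among 19938 genes measured in islets of NZO and C3H mice. A gene was kept where a probe set was annotated to it alone, and each of the 45 had 1 such probe set. Selp was not analysed here. The members are 7 ligands, 12 receptors and receptor partners, 7 transcription factors, 12 junction, surface and matrix proteins, 4 adhesion molecules for leukocytes, and 3 others, 2 secreted proteins and the nitric oxide synthase of endothelium.

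The study compared pancreatic islets of male NZO/Hl mice, an obese and diabetes-prone inbred strain, with islets of male C3H mice, labelled C3H as strain and C3HeB/FeJ in the notes on housing, in a search for C3H variants that affect islet gene expression within a mapped interval. All mice were 6 weeks old, and all had received a high-fat diet, with 45% of its calories from fat, from weaning at day 21. The islets of both strains were isolated with collagenase and kept overnight in medium with 10 mM glucose before RNA was extracted. There were 5 NZO arrays and 5 C3H arrays. Most sample titles carry a pair of numbers, while NZO replicate 4 has a single one and NZO replicate 5 a run of numbers. The titles share no number with each other, and what the numbers stand for is not stated. Whether animals were pooled is not stated either, so a p-value here measures the spread between arrays, which may be technical. The study's interval runs from 30 to 46 Mb, taken here as on chromosome 7, which the labels do not state. Of the 45 genes, 0 start there, and Lyve1 is the only member on that chromosome, at chr7:110850607-110862953 (GRCm38.p6).

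Beta cells secrete the growth factor VEGF-A, which keeps the islet's capillaries dense and fenestrated. VEGF-A acts on endothelial cells through the receptor tyrosine kinase Kdr, with neuropilins as partners, and Flt1 binds the same ligand and limits it. Angiopoietins act on the receptor Tek, and Notch ligands such as Dll4 decide which cells lead a sprout as tip cells. Transcription factors of the ETS and SOX families bind the promoters and enhancers of many endothelial genes.

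The promoter windows of Esm1, the member with the largest difference between the strains, and of Emcn and Robo4, a pair of endothelial surface genes that differed in the opposite direction, show where the ETS core motif stands. The sequences are those of RefSeq on GRCm38.p6, from 250 bases before to 50 bases after a transcript start, on the plus strand, at chr13:113209409-113209708 for Esm1, chr3:137340828-137341127 for Emcn and chr9:37401722-37402021 for Robo4. Capitals mark the ETS core GGAA and its reverse complement TTCC.
Esm1: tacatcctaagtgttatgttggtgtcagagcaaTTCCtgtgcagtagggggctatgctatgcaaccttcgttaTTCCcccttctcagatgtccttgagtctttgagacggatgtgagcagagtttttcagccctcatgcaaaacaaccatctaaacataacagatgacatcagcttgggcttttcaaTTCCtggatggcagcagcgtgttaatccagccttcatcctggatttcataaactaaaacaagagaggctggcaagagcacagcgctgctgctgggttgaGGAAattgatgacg
Emcn: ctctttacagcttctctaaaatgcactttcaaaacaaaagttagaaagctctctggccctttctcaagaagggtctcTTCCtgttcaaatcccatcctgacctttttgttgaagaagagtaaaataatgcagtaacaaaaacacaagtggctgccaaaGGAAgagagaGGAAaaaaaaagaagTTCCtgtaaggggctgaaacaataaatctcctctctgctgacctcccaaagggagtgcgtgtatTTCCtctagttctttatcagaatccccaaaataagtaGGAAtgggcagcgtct
Robo4: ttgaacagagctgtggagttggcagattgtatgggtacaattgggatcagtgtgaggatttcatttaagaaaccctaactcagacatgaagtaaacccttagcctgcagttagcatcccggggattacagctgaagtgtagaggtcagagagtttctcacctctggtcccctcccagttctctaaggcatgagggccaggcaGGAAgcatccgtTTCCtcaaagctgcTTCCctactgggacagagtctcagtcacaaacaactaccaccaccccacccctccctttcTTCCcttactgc
The Esm1 window holds 4 copies of this core, the Emcn window 6 and the Robo4 window 4. A motif this short is common, and 96.0% of the 32851 promoter windows in the table hold at least 1 copy, with a median of 3. The SOX core ACAAT, or ATTGT on the other strand, does not overlap the ETS core; it occurs 0 times in the Esm1 window, 1 time in the Emcn window and 2 times in the Robo4 window, and is present in 31.0% of all windows. The table held windows for 23 of the 45 members. These matches describe the reference sequence and not the binding of any factor.

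Values are log2 expression values, 1 per gene and array, normalized by the authors with RMA, so a difference of 1 is a factor of 2, and RMA draws differences of dim and very bright genes toward 0. The values carry no detection call. Differences are NZO minus C3H with the standard error (SE) of limma, a linear model fitted to all 19938 genes, and a gene was called where its Benjamini-Hochberg adjusted p over all these genes was below 0.05. The mean of 12 defining endothelial genes, among them Pecam1, Cdh5 and Kdr, was 8.91 to 9.24 on NZO arrays and 8.87 to 9.14 on C3H arrays, and 11 of the 12 lay above the median brightness of all genes, with Cldn5 below it. Among the members, 36 of 45 lay above that median, and Angpt1 alone lay below the 25th percentile.

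Most endothelial genes had somewhat larger values in NZO islets, with few passing the test, while Esm1 was far lower. Of the 45 members, 7 rose in NZO (Emcn, Sox18, Robo4, Angpt2, Eng, Nrp1 and Flt4), 2 fell (Esm1 and Pgf) and 36 did not pass. Over all genes, 10.1% were called, 5.47% higher and 4.61% lower in NZO. The members' share was 15.6% higher and 4.44% lower, so the count of lower members is close to the background. The sign of the difference was positive in 38 of 45 members, where it was positive in 8937 of all 19938 genes. The members' median was 0.21, against -0.02 over all genes. The unadjusted limma p was below 0.05 in 21 higher and 2 lower members, and in 2247 higher and 2103 lower of all 19938 genes. Marker genes of several other cell types, given below, also had positive medians, while endocrine genes had a negative one. The strains' values did not overlap in 5 higher members, where 4.96% of all genes lay apart in that direction, and in 2 lower members, where the background was 4.18%. In whole islets, more cells of a type and more RNA per cell cannot be told apart.

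**Figure D1:**
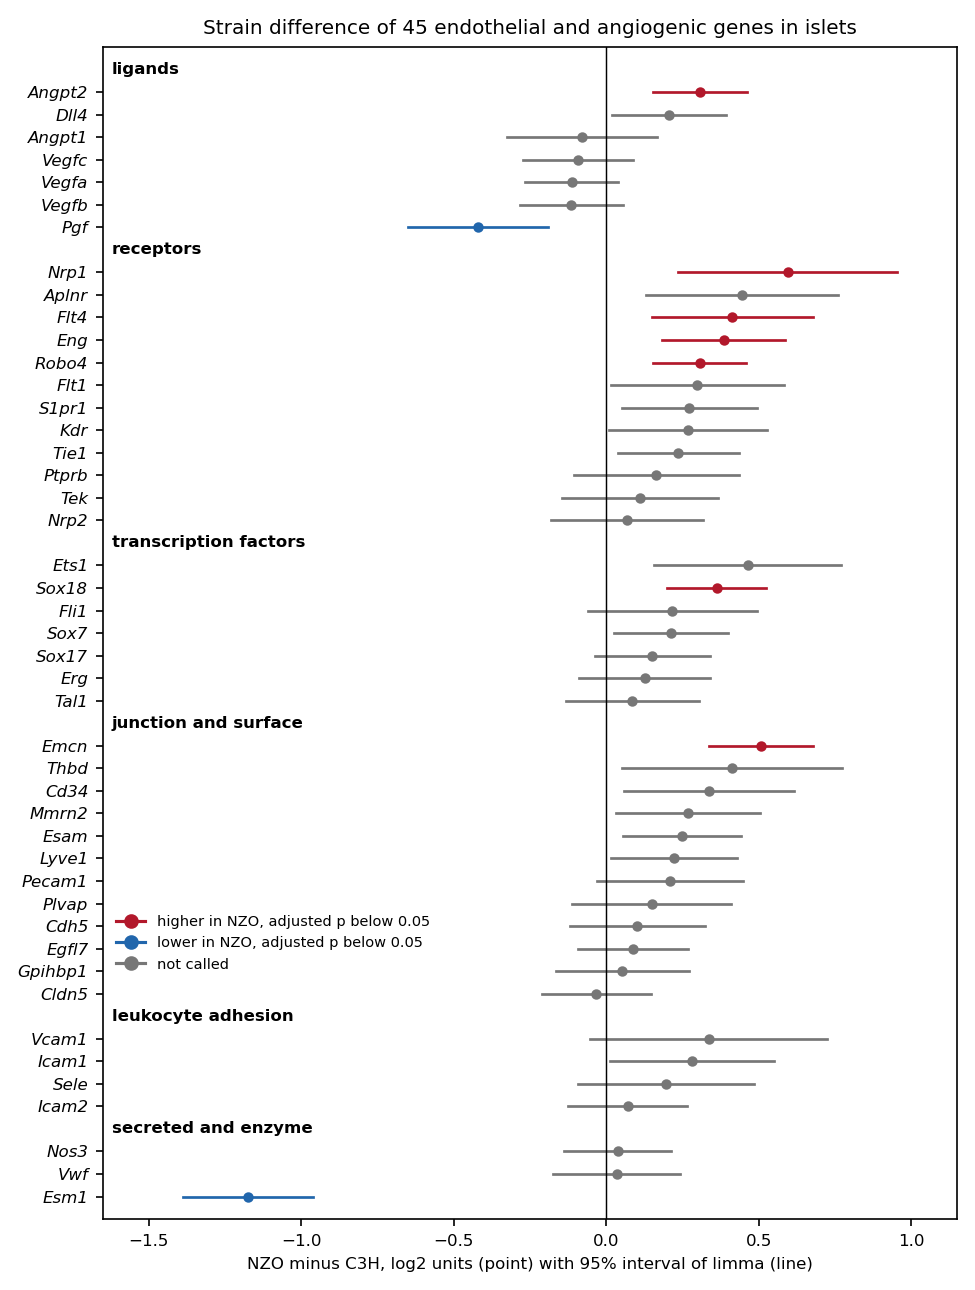
Difference between NZO and C3H islets (log2 units, horizontal axis) for the 45 endothelial and angiogenic genes, grouped by role; points are limma differences and lines their 95% intervals. The 7 called higher members lie between 0.31 and 0.59, and Esm1 stands apart at -1.17.

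Esm1 encodes endocan, a secreted proteoglycan of endothelial cells that VEGF-A induces. Its values were 9.10, 8.81, 8.78, 8.82 and 8.59 on the NZO arrays, against 9.92, 10.16, 9.96, 9.82 and 10.12 on the C3H arrays. Every NZO array lay below every C3H array, and the gap between the groups was wider than the range within either strain. Esm1 averaged 8.82 ± 0.18 in NZO and 9.99 ± 0.14 in C3H (SD, n = 5 each), 2.26-fold lower in NZO (log2 difference -1.17, SE 0.10, limma adjusted p = 2.99e-06). The gene lies at chr13:113209659-113218104, and the promoter window printed above surrounds its start.

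Among the ligands, Angpt2 rose and Pgf fell, and the transcript of VEGF-A itself was not called. Angpt2 is the angiopoietin that endothelial cells store and release to act on Tek. It had values of 9.71, 9.61, 9.61, 9.68 and 9.52 in NZO, against 9.18, 9.30, 9.40, 9.32 and 9.40 in C3H. The lowest NZO array lay above the highest C3H array. The difference was 0.31 (SE 0.07, 1.24-fold, limma adjusted p = 0.0134; chr8:18690263-18741562). Pgf, the placental growth factor that binds Flt1, had values of 8.16, 8.13, 7.85, 7.81 and 7.77 in NZO, against 8.61, 8.19, 8.41, 8.17 and 8.44 in C3H. The highest NZO array (8.163) and the lowest C3H array (8.175) almost met, without overlap. The difference was -0.42 (SE 0.11, 1.34-fold lower in NZO, limma adjusted p = 0.0207; chr12:85166637-85177785).

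Vegfa was 11.54, 11.56, 11.55, 11.43 and 11.35 in NZO, against 11.58, 11.58, 11.60, 11.68 and 11.56 in C3H. The C3H arrays lay close together and the NZO arrays reached lower, meeting them near 11.56, with NZO replicates 4 and 5 lowest. The difference was -0.11, with a 95% interval from -0.26 to 0.04 (limma adjusted p = 0.413), so a reduction of more than 0.26 log2 units lies outside the interval. Vegfb, a ligand of Flt1 (-0.12, SE 0.08), and Vegfc, a ligand of Flt4 (-0.09, SE 0.08), were not called either. Angpt1, the activating ligand of Tek, differed by -0.08 (SE 0.11) at a level of 5.52 ± 0.21 in NZO and 5.60 ± 0.20 in C3H, below the 25th percentile of all genes. The Notch ligand Dll4 differed by 0.21 (SE 0.09, limma adjusted p = 0.176).

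All 12 receptors and receptor partners had a positive difference, with a median of 0.29, where 8937 of all 19938 genes were positive. Of these 12, 4 (33.3%) rose, against 5.47% of all genes. Robo4, a receptor that stabilises vessels, had values of 8.86, 8.77, 8.80, 8.84 and 8.92 in NZO, against 8.47, 8.54, 8.50, 8.46 and 8.69 in C3H. The NZO arrays were tightly grouped, and the highest C3H array, replicate 5, stayed below them. The difference was 0.31 (SE 0.07, 1.24-fold, limma adjusted p = 0.0127; chr9:37401902-37414023). Eng encodes endoglin, a co-receptor for TGF-beta and BMP ligands that macrophages also carry. It had values of 10.76, 10.48, 10.61, 10.82 and 10.97 in NZO, against 10.25, 10.38, 10.38, 10.24 and 10.47 in C3H. NZO replicate 2 and C3H replicate 5 nearly met, without overlap. The difference was 0.39 (SE 0.09, 1.31-fold, limma adjusted p = 0.0163; chr2:32646595-32682669).

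Nrp1, the neuropilin that binds VEGF-A and semaphorins and is also made by other cell types, had the widest spread in NZO of the called members, 9.75 ± 0.42 against 9.16 ± 0.19 in C3H (SD, n = 5 each). Its values were 9.65, 9.17, 9.63, 10.22 and 10.11 in NZO, against 9.03, 9.29, 9.11, 8.96 and 9.41 in C3H. NZO replicates 4 and 5 were highest and NZO replicate 2 lay within the C3H values. The difference was 0.59 (SE 0.17, 1.51-fold, limma adjusted p = 0.0356; chr8:128358591-128505476). Flt4, the VEGF receptor known from lymphatic vessels and fenestrated capillaries, had values of 8.53, 8.06, 8.31, 8.40 and 8.29 in NZO, against 7.90, 8.06, 7.83, 7.50 and 8.21 in C3H. The groups overlapped, and C3H replicate 4 was the lowest array. The difference was 0.41 (SE 0.12, 1.33-fold, limma adjusted p = 0.0464; chr11:49609679-49652739).

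The VEGF-A receptors proper were not called. Kdr averaged 10.24 ± 0.22 in NZO and 9.97 ± 0.22 in C3H (SD, n = 5 each), a difference of 0.27 with a 95% interval from 0.01 to 0.53 (limma adjusted p = 0.21). Flt1 differed by 0.30 (SE 0.13), also without passing. The angiopoietin receptor Tek differed by 0.11 (SE 0.12), its relative Tie1 by 0.24 (SE 0.09), and the phosphatase Ptprb, which acts on Tek, by 0.16 (SE 0.13). The apelin receptor Aplnr, at 0.45 (SE 0.15, limma adjusted p = 0.074), and the sphingosine phosphate receptor S1pr1, at 0.27 (SE 0.10), were among the larger differences that did not pass. Nrp2, a co-receptor for Vegfc, differed by 0.07 (SE 0.12).

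**Figure D2:**
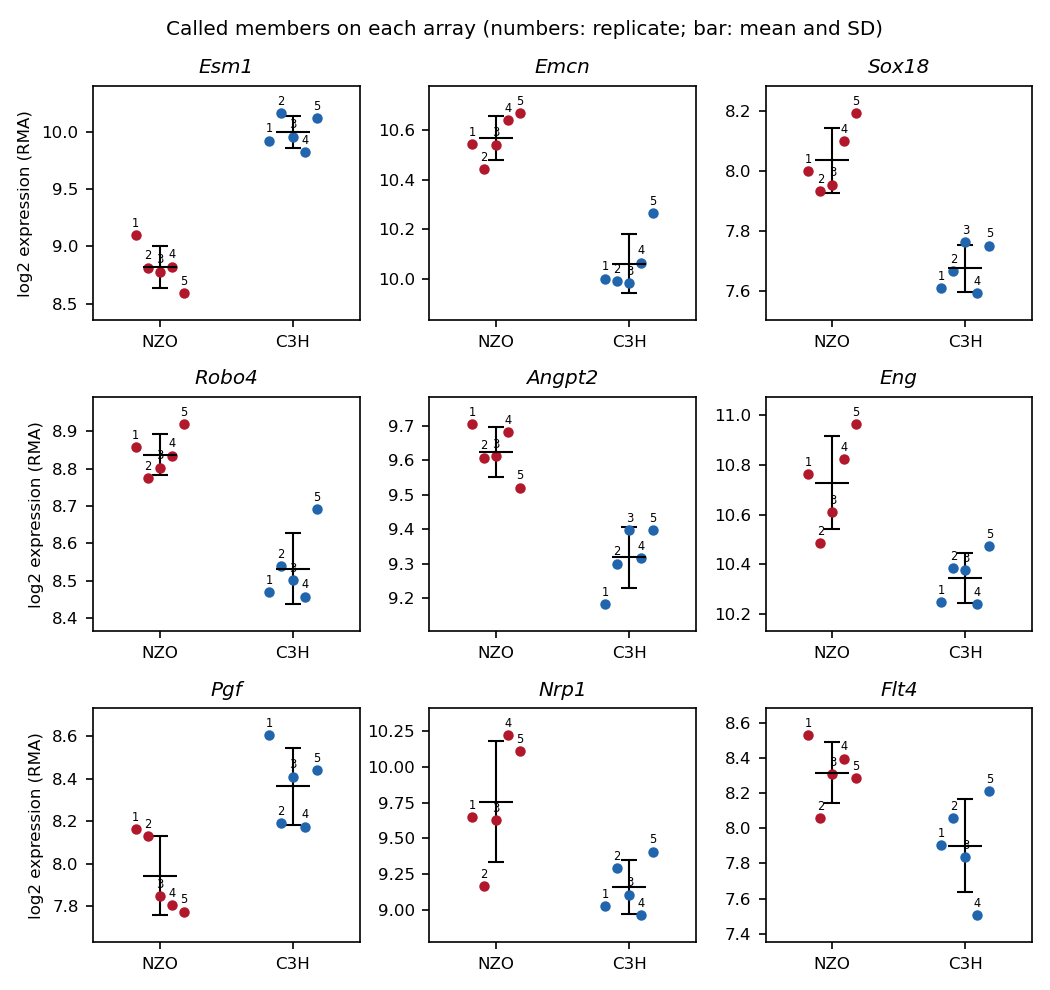
Log2 expression (RMA) on each array of the 9 called members, NZO left and C3H right, with replicate numbers at the points and black bars for the mean and SD of 5 arrays. Esm1 and Pgf are lower in NZO and the others higher; the strains overlap in Nrp1 and Flt4 and in none of the other panels.

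Of the 7 transcription factors, 1 rose, Sox18, where 5.47% of all genes did. All 7 differences were positive, with a median of 0.21, where 8937 of all 19938 genes were positive. Sox18, which acts with Sox7 and Sox17 in vessel development, had values of 8.00, 7.93, 7.95, 8.10 and 8.19 in NZO, against 7.61, 7.66, 7.76, 7.59 and 7.75 in C3H. The groups did not overlap. The difference was 0.36 (SE 0.08, 1.28-fold, limma adjusted p = 0.00664; chr2:181669837-181671640). Its relatives Sox7 (0.21, SE 0.09) and Sox17 (0.15, SE 0.09) were not called. Of the ETS factors, Ets1, which lymphocytes also express, came close to the threshold (0.46, SE 0.14, limma adjusted p = 0.0555), while Fli1 (0.22, SE 0.13) and Erg (0.13, SE 0.10) did not. Tal1, a factor of blood and endothelial development, differed by 0.09 (SE 0.10).

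Among the 12 junction, surface and matrix genes, Emcn rose and the markers used most often to identify endothelium did not pass. Emcn encodes endomucin, a sialomucin of capillary and venous endothelium. Its values were 10.54, 10.44, 10.54, 10.64 and 10.67 in NZO, against 10.00, 9.99, 9.98, 10.07 and 10.27 in C3H. All NZO arrays lay above all C3H arrays. The difference was 0.51 (SE 0.08, 1.42-fold, limma adjusted p = 0.000759; chr3:137341062-137431069). The adhesion molecule Pecam1 averaged 9.59 ± 0.22 in NZO and 9.38 ± 0.17 in C3H, and VE-cadherin (Cdh5) 10.56 ± 0.18 in NZO and 10.45 ± 0.17 in C3H (SD, n = 5 each). The 95% interval of the difference ran from -0.03 to 0.45 for Pecam1 and from -0.12 to 0.32 for Cdh5.

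Plvap, which forms the diaphragms of fenestrae, differed by 0.15 (SE 0.12). The junction proteins Esam (0.25, SE 0.09) and Cldn5 (-0.03, SE 0.08) and the stem cell and capillary antigen Cd34 (0.34, SE 0.13) were not called. Mmrn2, a matrix glycoprotein of endothelium, differed by 0.27 (SE 0.11), the thrombin receptor Thbd by 0.41 (SE 0.17) and the hyaluronan receptor Lyve1, a lymphatic marker also found on macrophages, by 0.22 (SE 0.10). The secreted factor Egfl7 (0.09, SE 0.08) and Gpihbp1, which holds lipoprotein lipase on capillaries (0.05, SE 0.10), had small differences. The same held for the endothelial nitric oxide synthase Nos3 (0.04, SE 0.08) and the clotting factor Vwf (0.03, SE 0.10). C3H replicate 4 was the highest C3H array in Cldn5, Nos3, Vwf and Gpihbp1. In Gpihbp1 it had 8.39, where the other C3H arrays had 7.86 to 8.02.

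None of the 4 adhesion molecules that capture leukocytes was called by limma. Icam1, 1 of the 4, had an unadjusted limma p below 0.05, as did 4350 of all 19938 genes. Vcam1 ranged from 7.35 through a median of 7.89 to 8.54 in NZO, against 7.47, 7.61 and 7.80 in C3H, a difference of 0.34 (SE 0.18). Its 2 highest arrays were NZO replicates 4 and 5. Icam1 differed by 0.28 (SE 0.13), with the same arrays highest, and E-selectin (Sele) by 0.20 (SE 0.13). Icam2, which endothelium carries without stimulation, differed by 0.07 (SE 0.09).

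Within each strain, single arrays were high or low in many members at once. NZO replicate 2 had the lowest NZO value in 30 of 45 members, and C3H replicate 5 the highest C3H value in 22. C3H replicate 4 had the lowest C3H value in 17 members and the highest in 10. The array weights of limma, which are smaller for noisier arrays, gave it 0.19, against 0.59 to 2.83 for the others. The highest NZO value was on replicate 1 in 16 members, on replicate 4 in 13 and on replicate 5 in 9. The mean of the 12 defining endothelial genes was 9.23, 8.91, 9.19, 9.24 and 9.21 in NZO, against 8.88, 8.98, 8.88, 8.87 and 9.14 in C3H. NZO replicate 2 thus lay within the C3H range, and C3H replicate 5 came near the other NZO arrays. Without NZO replicate 2, 17 members were called higher, where 7.57% of all genes were, and 2 lower, against 4.83%. The members added were Kdr (0.36), Flt1 (0.42), Tie1 (0.31), Ets1 (0.59), Fli1 (0.34), Aplnr (0.59), Cd34 (0.46), Mmrn2 (0.36), Thbd (0.57) and Vcam1 (0.50). Without C3H replicate 1, 4 members were called higher, against 3.87% of all genes, and 1 lower, against 3.36%. Without C3H replicate 4, 5 members were called higher, against 5.65% of all genes, and 2 lower, against 7.89%.

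**Figure D3:**
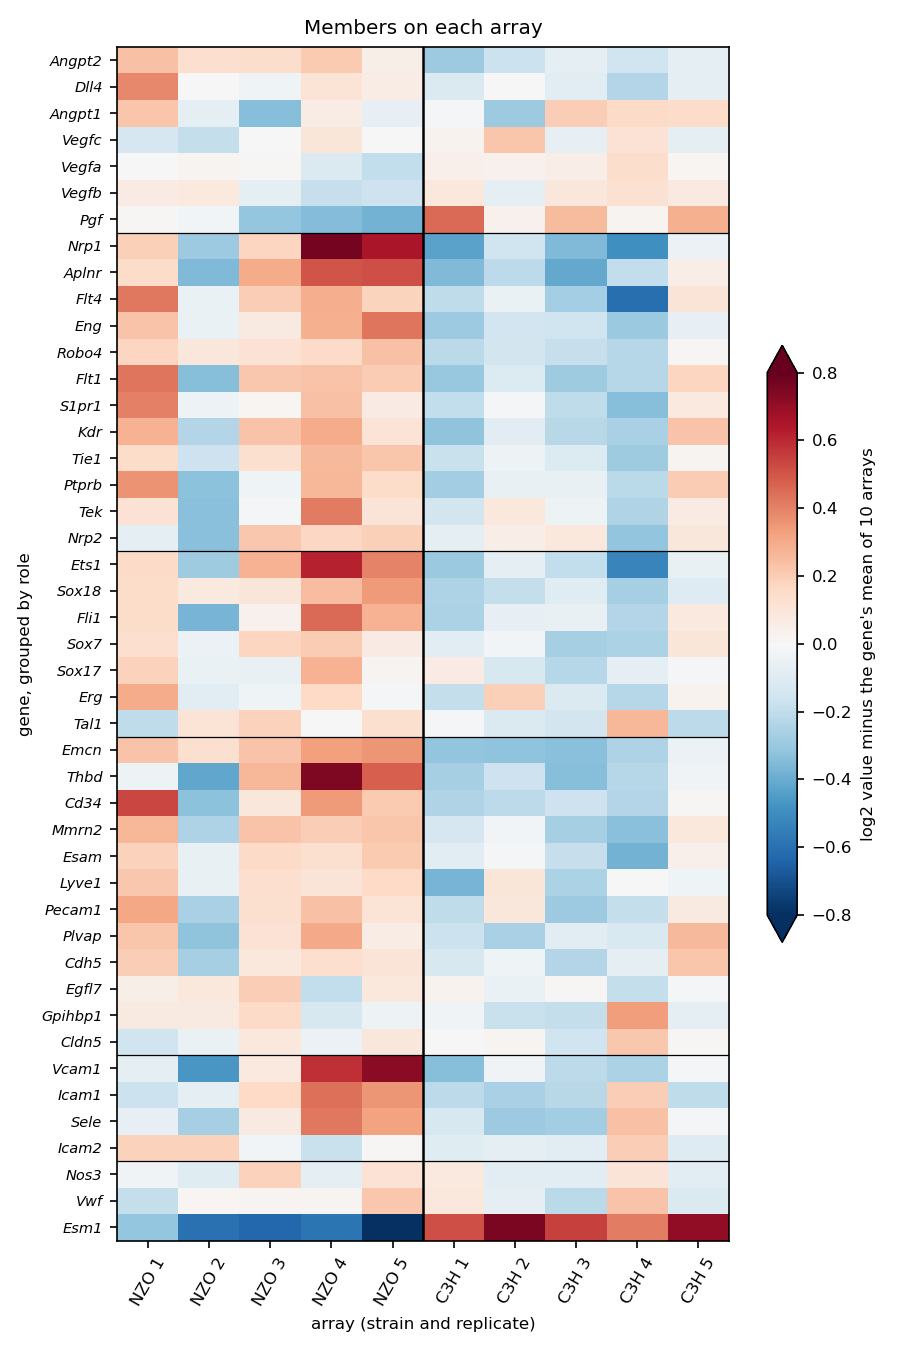
Log2 value of each of the 45 members on each array minus that gene's mean over the 10 arrays (colour, red above and blue below), NZO columns left of C3H columns, rows grouped by role. NZO replicate 2 is paler or bluer than the other NZO arrays in most rows, and the Esm1 row is blue in NZO and red in C3H.

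Transcripts of other cell types also differed between the arrays. All 22 measured acinar genes were called higher in NZO, and their mean was 9.92 to 12.00 on NZO arrays, highest on replicates 4 and 5, against 8.13 to 9.06 on C3H arrays. Of 9 macrophage genes, 2 were called higher, where 5.47% of all genes were. All 9 differences were positive, with a median of 0.67, and the mean was 7.25 to 8.46 in NZO and 7.26 to 7.43 in C3H. Of 7 fibroblast and stellate genes, 1 was called higher (means of 7.49 to 8.97 in NZO and 7.56 to 7.96 in C3H). All 7 differences were positive, with a median of 0.41. Of 8 pericyte and smooth muscle genes, 1 was called higher (means of 7.86 to 8.56 in NZO and 7.97 to 8.12 in C3H). Among these 8, 7 differences were positive, with a median of 0.14. The 5 duct genes averaged 8.27 to 9.35 in NZO and 7.92 to 8.09 in C3H, with 2 called higher. All 5 differences were positive, with a median of 0.55. The 5 lymphocyte genes averaged 6.45 to 6.70 in NZO and 6.30 to 6.79 in C3H, with a median difference of 0.03 and 0 called. Of these lymphocyte genes, 1 had an unadjusted limma p below 0.05, as did 4350 of all 19938 genes. The 7 endocrine genes averaged 12.51 to 13.03 in NZO and 13.02 to 13.17 in C3H, with a median difference of -0.10. Of these 7, 3 were called lower in NZO, where 4.61% of all genes were. The part of macrophage, fibroblast, mural and lymphocyte transcripts in the differences of Nrp1, Eng, Ets1, Thbd and Vcam1, genes that such cells can also express, was not tested.

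Esm1 was called in each setting tried, and none of the 7 higher members was called with the acinar transcripts as a covariate. With each array left out in turn, Esm1 (-1.24 to -1.12), Emcn (0.48 to 0.56), Sox18 (0.32 to 0.39), Robo4 (0.29 to 0.35) and Angpt2 (0.27 to 0.33) passed in all 10 fits. Eng (0.33 to 0.45) lost its call without C3H replicate 1 (limma adjusted p = 0.0525). Pgf (-0.48 to -0.36) lost it without NZO replicate 3, 4 or 5 or C3H replicate 1, 3 or 5, and Nrp1 (0.48 to 0.74) without NZO replicate 3, 4 or 5 or C3H replicate 1, 3 or 4. Flt4 (0.31 to 0.49) passed only without NZO replicate 2 or C3H replicate 5, with adjusted p values of limma up to 0.107. Without NZO replicates 4 and 5, the arrays richest in acinar transcripts, Esm1 (-1.10, SE 0.11) and Emcn (0.45, SE 0.09) were called, where 3.07% of all genes were higher and 2.47% lower, and the median of the members was 0.14. The other 7 were not called there, at 0.32 for Angpt2 (limma adjusted p = 0.0521), 0.29 for Sox18, 0.28 for Robo4, 0.40 for Flt4, 0.28 for Eng, 0.32 for Nrp1 and -0.32 for Pgf, with 3 NZO arrays left. With the acinar mean as a covariate beside strain, Esm1 alone was called (-0.88, SE 0.19, limma adjusted p = 0.0374), where 0.522% of all genes were lower and 0.612% higher, and the members' median was 0.020. That covariate differs between the strains and multiplies the SE by a factor of 2.05 through the design alone. Under it Angpt2 was 0.39, Flt4 0.40, Emcn 0.38 and Robo4 0.28, with none of them called, Sox18 was 0.17, Eng 0.12 and Pgf -0.19, and Nrp1 turned to -0.14.

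With the mean of the 12 defining endothelial genes as the covariate, a setting chosen after the data were seen, Esm1 was -1.27 (SE 0.13, limma adjusted p = 6.86e-05) and Emcn 0.37 (SE 0.10, limma adjusted p = 0.0452). Over all genes 1.74% were called higher and 2.1% lower. Emcn and Robo4 are among the 12 genes, whose mean difference is 0 under this covariate by construction, so their values and the members' median are in part set by it. The others were not called: Robo4 was 0.21, Flt4 0.12, Nrp1 0.17, Eng 0.20, Sox18 0.28, Angpt2 0.26 and Pgf -0.35. The endothelial covariate multiplies the SE by a factor of 1.35 through the design alone, so a lost call need not mean a smaller difference.

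Further endothelial genes, a list of 37 measured genes without the members, had a median difference of 0.17. Of these, 10 (27.0%) were called higher, against 5.47% of all genes, and 1 (2.70%) lower, against 4.61%. Nr2f2, a factor of venous endothelium also present in endocrine cells, averaged 7.65 ± 0.20 in NZO and 6.95 ± 0.17 in C3H, a difference of 0.70 (SE 0.11, limma adjusted p = 0.000703). The sialomucin Podxl was at 0.53 (SE 0.08), the prostaglandin transporter Slco2a1 at 0.59 (SE 0.10), and Rasip1, needed for the vessel lumen, at 0.39 (SE 0.07). The strains did not overlap in any of these. The water channel Aqp1 (0.72, SE 0.16) and the scavenger receptor Stab1 (0.54, SE 0.13), which duct cells and macrophages also carry in that order, had groups that did not overlap. All of these but Rasip1 were highest on NZO replicates 4 and 5, where Rasip1 was highest on replicate 5 and lowest on 4. With the acinar mean as a covariate, Nr2f2 was 0.34, Podxl 0.46, Slco2a1 0.20, Rasip1 0.33, Aqp1 -0.18 and Stab1 -0.080, with none called. Without NZO replicates 4 and 5, Nr2f2 (0.56), Podxl (0.48), Slco2a1 (0.44), Rasip1 (0.37) and Aqp1 (0.42) were called and Stab1 (0.35) was not. The other 4, outside the rule for named genes and listed after their values were seen, were Heg1, Ecscr, Cd93 and Arhgef15. Prox1, the lymphatic factor that islet endocrine cells express too, fell to 9.21 ± 0.11 in NZO, against 9.74 ± 0.13 in C3H (difference -0.53, SE 0.08, limma adjusted p = 0.000829). It was called without NZO replicates 4 and 5 (-0.50) and not with the acinar mean as a covariate (-0.42).

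Of 41 genes that signal to or within vessels, 2 (4.88%) fell, close to the 4.61% of all genes, and 6 (14.6%) rose, against 5.47%, and the median difference was 0.15. Notch4, the Notch receptor of endothelium, averaged 8.15 ± 0.08 in NZO and 7.80 ± 0.10 in C3H, a difference of 0.35 (SE 0.08, limma adjusted p = 0.00725), with no overlap. Its difference was 0.33 without NZO replicates 4 and 5 (limma adjusted p = 0.0661) and 0.24 with the acinar mean as a covariate, called in neither. The oxygen-sensing hydroxylase Egln3 (1.13, SE 0.22), the angiogenesis inhibitors Thbs1 (0.84, SE 0.17) and Adamts1 (0.79, SE 0.17), the chemokine Cxcl12 (0.58, SE 0.12) and the semaphorin receptor Plxnd1 (0.49, SE 0.14) were also higher, and all 5 were highest on NZO replicates 4 and 5, the arrays richest in acinar transcripts. With the acinar mean as a covariate their differences were 0.46 for Egln3, 0.10 for Thbs1, 0.15 for Adamts1, 0.017 for Cxcl12 and 0.0089 for Plxnd1, and none was called. Without those 2 arrays they were 0.85, 0.55, 0.56, 0.39 and 0.32 in the same order, and Egln3, Thbs1 and Cxcl12 were called. Only Cxcl12 of these 5 had groups that did not overlap, and Plxnd1 passed in 3 of the 10 fits without 1 array. Apln, the ligand of Aplnr, fell to 7.49 ± 0.09 in NZO, against 7.85 ± 0.17 in C3H (difference -0.36, SE 0.09, limma adjusted p = 0.0179). Apln was -0.35 without NZO replicates 4 and 5 and -0.27 with the acinar covariate, called in neither. Dusp6, a phosphatase that growth factor signalling through ERK induces in many cell types, averaged 9.13 ± 0.19 in NZO and 9.99 ± 0.22 in C3H. Its difference was -0.86 (SE 0.11, limma adjusted p = 0.000202), with no overlap. Dusp6 was called in both of those settings, at -0.96 without the 2 arrays and -1.12 with the acinar covariate. Without NZO replicate 2, 14 genes of this list were called higher, against 7.57% of all genes.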

How the data were processed

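Total RNA of islets, 150 ng per array, was measured on an Affymetrix whole-transcript mouse array. Per the submitters' processing notes, the authors used Affymetrix Expression Console and RMA to make the deposited log2 expression values. Its version and probe set library are not given in any label. The table holds 35556 probe sets, of which 21789 carry exactly 1 gene symbol, 1621 several and 12146 are unnamed here. The brightest probe set per gene was kept, 19938 genes in all, with no filter and no further normalization. Strains were compared with limma 3.58.1 in R 4.3.3 (lmFit, eBayes, two-sided), adjusted by Benjamini-Hochberg over all genes, and the number of arrays limits the precision. On simulated data with 200 of 19938 genes changed, the fit recovered 70% of changes of 0.5, 98% of 1 and 100% of 2 or 3 log2 units, with 9 false calls. The simulated noise was independent between genes, without shifts of whole arrays, while in the data 2010 genes were called. These rates may therefore not carry over to the data, and no change below 0.5 was simulated. The labels give no batch. Members and lists were chosen with earlier results of these data known. By the naming rule, all members and up to 6 called genes per further list and direction are named. Alternatives left out arrays, filtered dim genes, rescaled arrays, changed the probe set rule, the variance prior and array weights, or added a covariate. Positions and promoter sequences are from RefSeq on GRCm38.p6, and the build of the probe sets is not given.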

Additional observations from a re-analysis of the deposited data

Results flagged for a closer look

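In 10 of 126 strain groups of 5 arrays, taken over the 63 genes named, the highest or lowest array stood apart from the other 4 by Dixon's test, where chance gives about 1 in 20 groups, or 6.3 here. Of these, 5 were on C3H replicate 4: Icam1 was 7.92 there against 7.46 to 7.52 on the other C3H arrays, Icam2 7.46 against 7.15 to 7.18, Vegfa 11.68 against 11.56 to 11.60, Aqp1 7.21 against 7.04 to 7.09, and Prox1 9.51 against 9.77 to 9.83. On NZO replicate 2, Cdh5 was 10.24, where the other NZO arrays had 10.59 to 10.70, and Mmrn2 was 8.21, where they had 8.65 to 8.72. Vegfb was 9.43 on C3H replicate 2 against 9.58 to 9.63, Cd34 was 8.90 on C3H replicate 5 against 8.65 to 8.72, and Cxcl12 was 6.20 on C3H replicate 3 against 6.32 to 6.37.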

How the results depend on the processing

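No paired analysis was possible because the labels give no replicate numbers, and those used here follow accession order. Over 63 named genes and 20 alternatives, 1092 of 1244 values kept their direction and their side of the threshold, 90 lost their call, 19 gained one and 43 changed sign. Members called higher numbered 7, with 4 to 17 over fits without 1 array (17 without NZO replicate 2, 4 without C3H replicate 1), 1 without NZO replicates 4 and 5, 0 with the acinar covariate and 1 with the endothelial covariate. Members called lower numbered 2, with 1 to 2 without 1 array and 1 in each of those 3 settings. The members' median of 0.21 was 0.17 to 0.27 without 1 array and 0.020 with the acinar or 0.023 with the endothelial covariate, which is made of 12 of the 45 members. Further endothelial genes called higher numbered 10, with 6 to 14 without 1 array, 5 without NZO replicates 4 and 5, 0 with the acinar and 3 with the endothelial covariate. Those called lower numbered 1, with 1 to 2 without 1 array, 2 after centring, 0 with the acinar and 2 with the endothelial covariate, and 3 with array weights. Vascular signalling genes called higher numbered 6, with 5 to 14 without 1 array, 3 without NZO replicates 4 and 5, 0 with either covariate and 10 with array weights. Those called lower numbered 2, with 1 to 3 without 1 array, and 1 without NZO replicates 4 and 5 or with the acinar covariate. Over all genes, 1090 were called higher and 920 lower, against 1574 lower without C3H replicate 4, 613 and 492 without NZO replicates 4 and 5, 122 and 104 with the acinar covariate, 347 and 418 with the endothelial covariate, 1815 and 2310 with array weights and 1386 lower after quantile normalization. Signs turned with the acinar covariate in Tek (-0.26), Plvap (-0.075), Ets1 (-0.082), Fli1 (-0.26), Sox17 (-0.014), Nos3 (-0.041), Vwf (-0.17), Vegfa (0.069), Vegfb (0.10), Nrp1 (-0.14), Nrp2 (-0.27), Icam1 (-0.23), Sele (-0.36), Vcam1 (-0.54), Ptprb (-0.0039), Aplnr (-0.071), Thbd (-0.39), Aqp1 (-0.18) and Stab1 (-0.080). With the endothelial covariate, under which the mean difference of its own 12 genes is 0 by construction, they turned in 6 of those genes, Pecam1 (-0.080), Cdh5 (-0.17), Kdr (-0.075), Flt1 (-0.086), Tek (-0.17) and Plvap (-0.16), and in Erg (-0.041), Fli1 (-0.12), Nrp2 (-0.17), Vcam1 (-0.066), Ptprb (-0.17) and Mmrn2 (-0.030). Without NZO replicates 4 and 5 they turned in Tek (-0.023), Vwf (-0.033) and Nrp2 (-0.029). Other turns lay near 0: Cldn5 without NZO replicate 1 (0.0047), without C3H replicate 4 (0.018) and with array weights (0.037), Nrp2 without C3H replicate 4 (-0.0024), Nos3 without NZO replicate 3 (-0.0043) and after quantile normalization (-0.0050), and Vwf after quantile normalization (-0.0066), without NZO replicate 5 (-0.015) and without C3H replicate 3 (-0.016). Over the fits without 1 array, Cldn5 ran from -0.076 to 0.018, Nrp2 from -0.0024 to 0.16, Nos3 from -0.0043 to 0.067 and Vwf from -0.016 to 0.095. Of the signalling genes, Plxnd1 lost its call in 7 of the 10 fits without 1 array, and Apln without NZO replicate 5 or C3H replicate 2. The cause of these changes was not tested. The deposited values carry no detection call, so a floor for dim genes could not be set.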

Other observations

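Genes of platelets and of pericytes, which accompany vessels and are no members, gave 3 further values, picked after they were seen. The platelet chemokine gene Pf4, which some macrophages also express, averaged 8.48 ± 0.85 in NZO and 6.51 ± 0.20 in C3H, a difference of 1.97 (SE 0.30, limma adjusted p = 0.000652), with no overlap. It was highest on NZO replicates 4 and 5 (9.10 and 9.27). Its difference was 1.49 without these arrays and 0.45 (SE 0.41), not called, with the acinar mean as a covariate. Ppbp, another platelet chemokine gene, differed by 0.92 (SE 0.18), although both strains were dim (5.75 ± 0.49 in NZO and 4.83 ± 0.13 in C3H), and by 0.12 with that covariate. The platelet integrin Itga2b differed by 0.01 (SE 0.10) and the glycoprotein Gp9 by 0.00 (SE 0.08). Thus 2 of the 4 measured platelet genes were called higher, where 5.47% of all genes were. Rgs5, a pericyte gene, averaged 9.81 ± 0.55 in NZO and 8.98 ± 0.21 in C3H (difference 0.83, SE 0.21, limma adjusted p = 0.0178), highest on NZO replicates 4 and 5 and 0.070 with that covariate, while the other 7 pericyte and smooth muscle genes were not called.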
